A study of Homo sapiens with 24 samples.

Results

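The cytosolic ribosomal protein genes encode the protein part of the ribosomes that translate cytoplasmic messenger RNA. They were taken as every gene name made of RPL or RPS, a number and at most one of the letters A, X or L, with RPSA, RPLP0, RPLP1 and RPLP2 added. This picked 81 of the 58138 gene names in the tables: 32 proteins of the small (40S) subunit, 46 of the large (60S) subunit and 3 of the stalk of the large subunit. Names of pseudogenes carry other suffixes and were left out.

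The series asked how RPRD1A, RPRD1B and RPRD2, proteins that bind the tail of RNA polymerase II, affect the amount of RNA at steady state. It holds 24 samples of human embryonic kidney cells in 12 groups of 2. HEK293T cells were transfected with a control siRNA (CTRL) or with siRNAs against 1 gene in RPRD2_KD, RPRD1A_KD and RPRD1B_KD, in pairs in RPRD1B_RPRD2_KD, RPRD1A_RPRD2_KD and RPRD1A_RPRD1A_KD, and against all of them in RPRD1A_RPRD1B_RPRD2_KD; the label RPRD1A_RPRD1A_KD names RPRD1A in both places and was kept. Flp-In T-REx 293 cells, built to take up a gene at a fixed site and switch it on with tetracycline, were used in groups named for the line itself (FLP, FLP_TET; called the parent line here) and as a line labelled RPRD1B_FL (RPRD1B_FL, RPRD1B_FL_TET), where TET marks tetracycline induction. The treatment lasted 48 hours in both lines, all cells grew in the same serum-containing medium, and the FLP and RPRD1B_FL groups without TET are labelled as untreated. The labels do not say whether the RPRD1B_FL line is a single clone or whether the samples of a group came from separate cultures, so each p-value measures only the spread between these samples, which may be technical.

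A ribosomal protein is needed in one copy per ribosome, except for the stalk proteins, so cells make these proteins in matched amounts. Their mRNAs belong to the most abundant of growing cells and share a start, the 5′ terminal oligopyrimidine (TOP) motif: a C followed by an unbroken run of pyrimidines, through which LARP1 and the kinase mTOR set their translation. Several members have a near copy with its own expression pattern, such as RPL39L for RPL39, RPL3L for RPL3, RPL10L for RPL10 and RPS27L for RPS27.

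The starts below are shown because they carry this shared feature, or lack it, in several members the results turn on. RPL39L and RPL37 were not matched to a RefSeq promoter, so their starts are not shown. Each is the window of 20 bases before and 10 bases from the RefSeq transcription start (build GRCh38.p14), read 5′ to 3′ on the gene's own strand, with the C-led pyrimidine run that begins within 5 bases of the start in capitals. RPL27A lies at chr11:8682772-8682801 (plus strand), RPS19 at chr19:41860235-41860264 (plus), RPS3 at chr11:75399498-75399527 (plus), RPL26 at chr17:8383184-8383213 (minus), RPL34 at chr4:108620556-108620585 (plus), RPL39 at chrX:119791621-119791650 (minus), RPS28 at chr19:8321476-8321505 (plus) and RPS27L at chr15:63157468-63157497 (minus).
RPL27A: gagacttggcgaaggCCTTCCTTTTTCgtc
RPS19: gcccgggaaaccccgtcgttCCCTTTCCCC
RPS3: cttccgcccgcgagccaCTTCCTTTCCTTT
RPL26: accggaagcagcgtgtagttCTCTTCCCTT
RPL34: ctggcaaaggcttttttCTTCCTCTTCCgg
RPL39: gctcgttcttccgccagCTTCCCTCCTCTT
RPS28: ggctctccccgaagcacgtgaCTCCTCTCC
RPS27L: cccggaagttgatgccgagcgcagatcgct

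Of the 64 members matched by symbol to a RefSeq promoter, 42 (65.6%) had a C at the annotated start followed by at least 4 further C or T, searched on the transcript's strand. The same letters stood at 1104 of 27305 starts in the whole table (4.0%). With the run allowed to begin within 5 bases of the start, the shares were 78.1% of the members and 21.1% of all promoters. Of 11 other genes known for TOP mRNAs with a promoter in the table, among them elongation and initiation factors, 9 had the run at the start. Of 28 genes for ribosome assembly and rRNA synthesis, 1 did. RPS28 had its run 1 base after the annotated start, and RPS27L, the near copy of RPS27, had none in this window.

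Counts were of QuantSeq 3′ libraries, in which a read marks the 3′ end of a polyadenylated transcript, so they were not divided by transcript length. Totals in genes were 1817246 to 3135625 in HEK293T and 2342969 to 3531106 in Flp-In libraries, and levels are given as CPM, each gene's count scaled to the library's total in genes. The second RPRD1A_RPRD2_KD library stood apart from the other HEK293T libraries, and first- and second-numbered HEK293T libraries differed: reads outside annotated genes were 34.3% to 36.7% of reads in the first and 27.4% to 29.8% in the second, against 15.3% to 19.5% in Flp-In libraries. Of 8 embryonic kidney markers, 6 were above a mean of 5 CPM in HEK293T and 7 in Flp-In libraries; the blood markers PTPRC, CD3E and HBB were at 0 in HEK293T cells. RPRD1A, the silenced gene of RPRD1A_KD, fell by 2.98 on the log2 scale there (SE 0.25, edgeR adjusted p 1.94e-05), and RPRD2 fell by 1.61 in RPRD2_KD (SE 0.19, edgeR adjusted p 0.0017). For RPRD1B in RPRD1B_KD the value was -1.77 (SE 0.42), which did not pass the edgeR test (adjusted p 1.00). The group labelled RPRD1A_RPRD1A_KD had RPRD1A at -2.97 (edgeR adjusted p 2.49e-05) and RPRD1B at -1.38, which did not pass (edgeR adjusted p 1.00; unadjusted 0.0042). RPRD1A was also at -0.77 in RPRD1B_KD, -0.88 in RPRD2_KD and -1.06 in RPRD1B_RPRD2_KD, and RPRD2 at -0.71 in the triple group, and none of these passed (edgeR adjusted p 0.63 to 1.00). In RPRD1B_FL_TET against FLP_TET RPRD1B rose by 1.34 (edgeR adjusted p 3.23e-04).

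The 81 genes together took between 14.1% and 17.2% of all counts in genes, and the silenced groups did not differ from CTRL in this share beyond the spread within groups. CTRL libraries stood at 15.2% and 14.5%. RPRD1A_KD libraries stood at 14.4% and 14.4%, RPRD1B_KD at 14.6% and 14.8%, RPRD2_KD at 14.7% and 14.5%, and RPRD1A_RPRD1A_KD at 14.1% and 15.01%. RPRD1B_RPRD2_KD stood at 14.8% and 15.3%, the triple group RPRD1A_RPRD1B_RPRD2_KD at 14.6% and 15.1%, and RPRD1A_RPRD2_KD at 14.7% and 17.2%. The second RPRD1A_RPRD2_KD library was the highest of the 16 HEK293T libraries, 17.2% against 15.3% for the next, and the first RPRD1A_RPRD1A_KD library was the lowest, 14.1% against 14.4%.

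The mean share was 14.9% in the 14 silenced libraries and 14.8% in the 2 CTRL libraries. The difference of 0.017 percentage points was smaller than the SD of 0.72 within groups (2-sided exact permutation test over 120 choices of 2 libraries, p = 0.97, adjusted over 3 share tests 0.97). Much of that SD came from RPRD1A_RPRD2_KD: without its second library the SD was 0.37 and the difference -0.16 (exact permutation, p = 0.54). In Flp-In cells the share was 16.4% and 16.3% in FLP, 15.9% and 16.6% in FLP_TET, 16.5% and 15.8% in RPRD1B_FL, and 16.4% and 16.7% in RPRD1B_FL_TET. The RPRD1B_FL line differed from the parent line by 0.080 percentage points (exact permutation within tetracycline state, p = 0.67, adjusted 0.97) and cells with tetracycline from those without by 0.11 (exact permutation within line, p = 0.61, adjusted 0.97), against an SD of 0.37 within groups. The smallest p that these 2 tests over 36 choices can give is 0.056, so they could not have passed 0.05. Groups of 2 against 2 were not tested for the share.

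**Figure D1:**
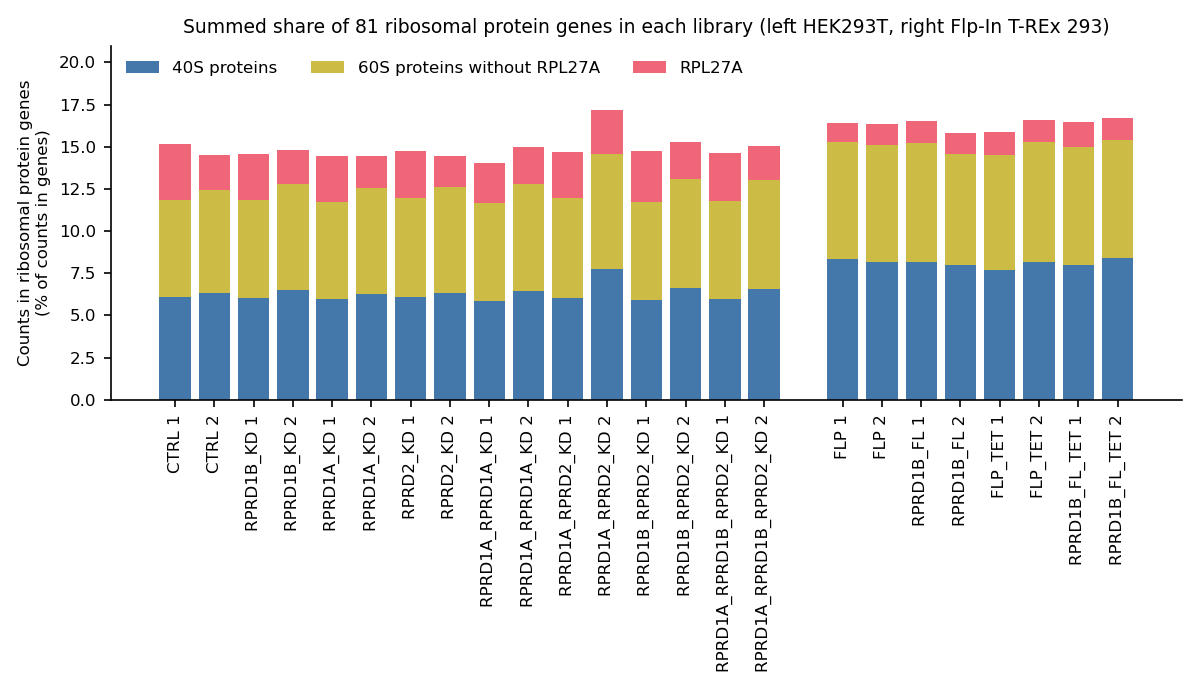
Summed share of the 81 ribosomal protein genes in each of 24 libraries, as a percentage of counts in genes, split into 40S proteins, 60S proteins without RPL27A, and RPL27A. The bars lie between 14.1% and 15.3% in HEK293T cells except for the second RPRD1A_RPRD2_KD library at 17.2%, and between 15.8% and 16.7% in Flp-In cells, where the RPL27A part is smaller.

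The share was dominated by a few names. The 10 with the highest mean counts, led by RPL27A, RPS27A, RPS14, RPLP1 and RPLP0, held 50.2% of all ribosomal protein counts. RPS27A encodes a fusion of ubiquitin with a 40S protein, RPS14 a protein of the 40S platform, and RPLP0 and RPLP1 parts of the stalk that calls in elongation factors. Mean levels were 1000 CPM or more for 42 members, 100 to 1000 CPM for 19, 10 to 100 CPM for 11 and under 10 CPM for 9.

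Some members whose mRNA is needed in every cell were among the lowest. RPL23A, a 60S protein at the exit of the peptide tunnel, had 1890 counts over all libraries, while names of its pseudogenes had 91613. RPS7 had 1014 counts and its pseudogene names 3492. By contrast RPS19, which is among the 10 most abundant members, had 276158 counts and its pseudogene names 24973. RPL10 had 44 counts in all 24 libraries and RPL17, whose locus also carries the annotated readthrough gene RPL17-C18orf32, had 154. Reads without a unique position, which the tables give only as a total, were 9.56% to 14.6% of reads, so the level of a member with near-identical copies is uncertain. In such bulk samples, fewer cells with an mRNA and less of it per cell cannot be told apart. RPL3L, the near copy of RPL3 known from muscle, had 32 counts in all and RPL10L, the near copy of RPL10 known from testis, had 2. At 3 counts, 0.85 to 1.65 CPM, no library held RPL10L above the floor of detection.

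RPL27A, a 60S protein, was the largest single member, with 12.9% of all ribosomal protein counts. Its share of counts in genes was 3.33% and 2.04% in CTRL, 2.71% and 1.88% in RPRD1A_KD, 2.77% and 1.99% in RPRD1B_KD, and 2.73% and 1.88% in RPRD2_KD. It was 2.40% and 2.23% in RPRD1A_RPRD1A_KD, 2.71% and 2.59% in RPRD1A_RPRD2_KD, 3.01% and 2.17% in RPRD1B_RPRD2_KD, and 2.83% and 2.06% in the triple group. The first-numbered library was the higher one in 8 of 8 HEK293T groups. In Flp-In cells all 8 values lay between 1.15% and 1.43%, below every HEK293T library, and the first-numbered library was higher in 2 of 4 groups.

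The first-numbered HEK293T libraries were also those with more reads outside annotated genes, and the libraries formed separate clusters by number, so no correlation is given. The gene spans chr11:8682411-8714759 on the plus strand in GENCODE release 29 and holds SNORA3A and SNORA3B within its span. Whether reads of the wider locus enter its count was not tested. The summed share was higher in the second-numbered library in 5 of 8 HEK293T groups, and without RPL27A in 8 of 8. Without RPL27A it was 11.7% to 11.99% in first-numbered and 12.5% to 14.6% in second-numbered HEK293T libraries, and 14.5% to 15.4% in Flp-In cells.

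**Figure D2:**
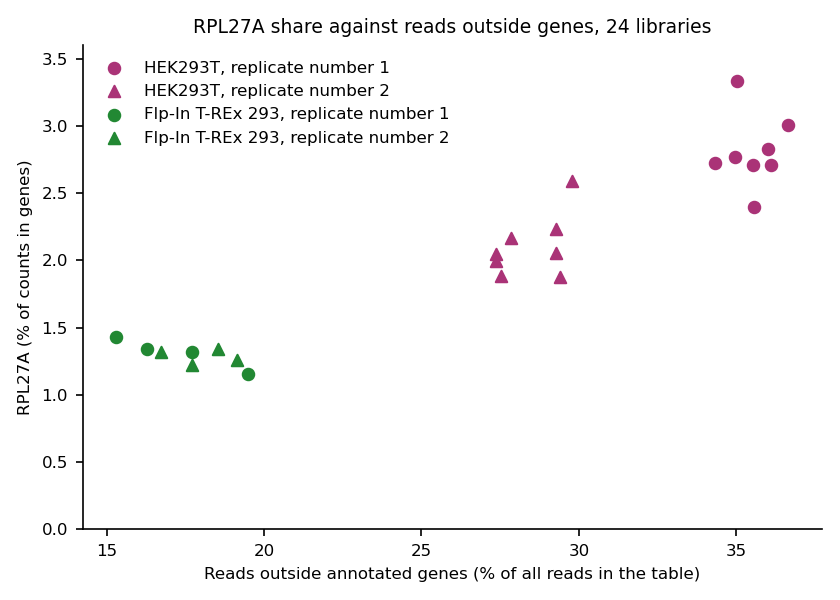
RPL27A as a percentage of counts in genes (vertical) against reads outside annotated genes as a percentage of all reads in the table (horizontal) for 24 libraries. First-numbered HEK293T libraries sit at 34.3% to 36.7% outside genes and 2.40% to 3.33% RPL27A, second-numbered ones at 27.4% to 29.8% and 1.88% to 2.59%, and Flp-In libraries at 1.15% to 1.43% RPL27A.

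The balance between the subunits differed between the lines, and less so without RPL27A. Counts of 60S members, stalk included, were 1.21 to 1.49 times those of 40S members in HEK293T libraries and 0.97 to 1.06 times in Flp-In libraries. Without RPL27A the ratios were 0.88 to 0.99 and 0.83 to 0.89. Among the 61 members at 100 CPM or more, the ratio of the highest to the lowest of 16 HEK293T libraries had a median of 1.43; it was under 1.5 for 41 members and over 2 for 1. RPS6, the 40S protein that S6 kinase phosphorylates, varied least, at 1.17-fold. Over 8 Flp-In libraries the median was 1.31, with 44 members under 1.5 and 3 over 2. Without the second RPRD1A_RPRD2_KD library no HEK293T member was over 2 (median 1.315, 54 under 1.5) and RPL23 varied least, at 1.13-fold. Without the first FLP library no Flp-In member was over 2 (median 1.25, 54 under 1.5).

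In the main fit, none of the ribosomal protein genes passed the test in any of the 7 silenced groups against CTRL. Of 81 members, 78 passed the filter on low counts (RPL10, RPL3L and RPL10L did not). edgeR's quasi-likelihood test with Benjamini-Hochberg adjustment over 11834 genes called 0 of 78 in each group, where 0.00845% of all genes were called in RPRD1A_KD, RPRD1B_KD, RPRD2_KD and RPRD1A_RPRD2_KD and 0.0169% in RPRD1A_RPRD1A_KD, RPRD1B_RPRD2_KD and the triple group. At an unadjusted p under 0.05 there were 3 members in RPRD1A_RPRD2_KD (RPL26, RPL39L and RPS18; 7.07% of all genes). RPL39L was the 1 such member in RPRD2_KD (3.84% of all genes) and the 1 in RPRD1B_KD (3.46%). There were 0 in the triple group (3.99% of all genes), RPRD1A_KD (2.64%), RPRD1B_RPRD2_KD (2.51%) and RPRD1A_RPRD1A_KD (3.99%). DESeq2 called 0 members in each of the 7 as well. With so few calls among all genes, a count of 0 in 78 is near the background. The result depended on the fit. The main fit held no term for the replicate number, although first- and second-numbered HEK293T libraries differed. With the replicate number as a block and the second RPRD1A_RPRD2_KD library omitted, some members were called, RPS3 and RPL39L among them, as listed in the last section.

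The members' median log2 fold change was between -0.03 (RPRD1A_KD) and 0.01 (RPRD1B_RPRD2_KD) in every silenced group but RPRD1A_RPRD2_KD, with medians of all genes within 0.01 of 0. In RPRD1A_RPRD2_KD it was 0.11 against -0.01 for all genes, and 60 of 78 members lay above 0. That group holds the second RPRD1A_RPRD2_KD library, in which the members' median deviation from the line's mean was 0.24 and their deviation was higher at higher transcript GC content (r 0.44 across 73 members, which are not independent). With that library omitted and the replicate number as a block, the median was -0.01. All 7 comparisons share the 2 CTRL libraries, so their values are given side by side and are not independent of one another. Members with and without the pyrimidine run at the start had medians of 0.11 and 0.15 in RPRD1A_RPRD2_KD, and between -0.03 and 0.05 in the other 6 groups.

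**Figure D3:**
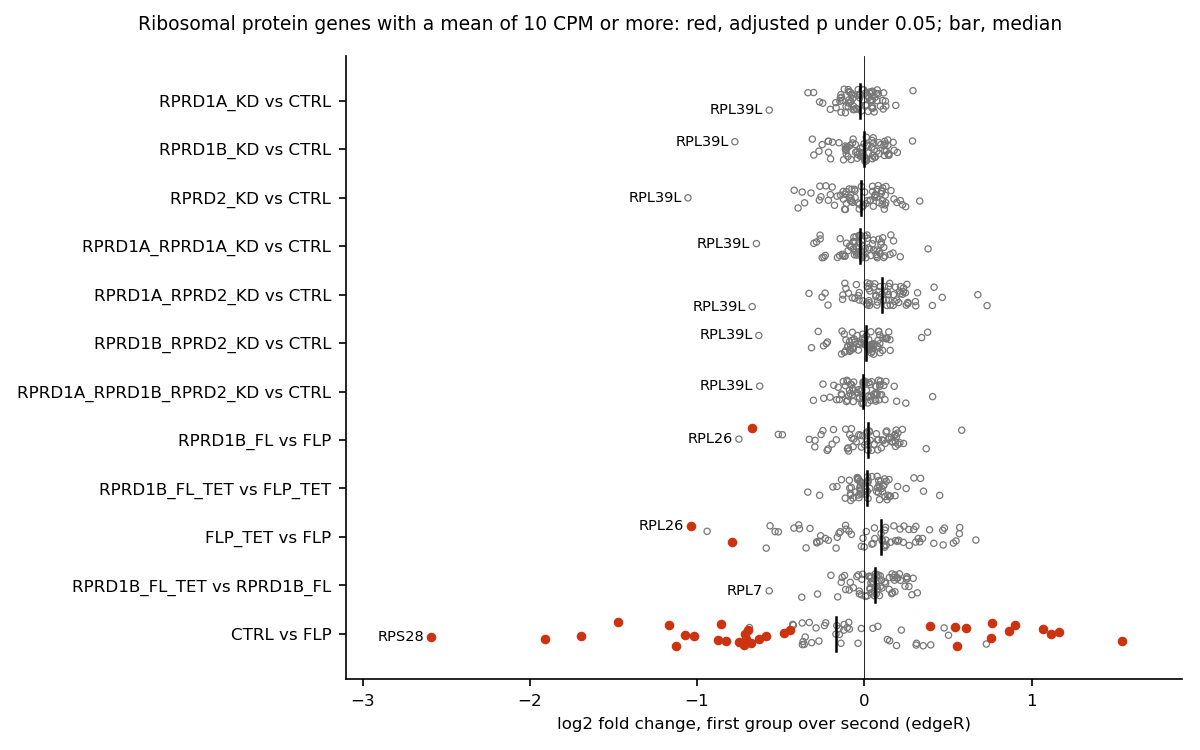
log2 fold changes (horizontal, edgeR) of ribosomal protein genes with a mean of 10 CPM or more in 12 comparisons (rows); bars are medians, red points have an adjusted p under 0.05, and the lowest member is named where it is under -0.5. In the 7 silenced groups RPL39L is the lowest point, from -0.57 to -1.05, and no point is red. RPL37 is the red point in RPRD1B_FL against FLP, RPL26 and RPL34 those in FLP_TET against FLP, and 33 members are red in CTRL against FLP.

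Among members of 10 CPM or more, RPL39L had the lowest log2 fold change in all 7 silenced groups, without passing the test in any in the main fit. RPL39L did pass in RPRD2_KD with the replicate number as a block and the second RPRD1A_RPRD2_KD library omitted, as given in the last section. It lies at chr3:187120948-187180908 (minus strand) and encodes a close paralogue of the 60S protein RPL39 that is known from testis and from some cancer cells. It had 20.7 and 32.6 CPM in CTRL, from 38 and 72 counts. The silenced libraries had 16.1 and 20.6 CPM in RPRD1A_KD, 11.2 and 20.8 in RPRD1B_KD, 14.9 and 11.6 in RPRD2_KD, and 13.9 and 20.7 in RPRD1A_RPRD1A_KD. They had 17.6 and 16.3 CPM in RPRD1A_RPRD2_KD, 15.8 and 19.95 in RPRD1B_RPRD2_KD, and 17.8 and 17.8 in the triple group.

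Of the 14 silenced libraries, 12 were below both CTRL libraries, and the second RPRD1B_KD and second RPRD1A_RPRD1A_KD libraries lay just above the first CTRL library. The log2 fold change of RPL39L was lowest in RPRD2_KD, at -1.05 (SE 0.32), where the unadjusted p was 0.0046 and the adjusted p of edgeR's quasi-likelihood test 1.00. In the other 6 groups it was between -0.57 and -0.77, with edgeR adjusted p of 0.70 to 1.00, so none passed. The size rested on the CTRL libraries that all 7 share: without the second it was between -0.23 (RPRD1A_KD) and -0.71 (RPRD2_KD), and without the first between -0.83 and -1.30. Single silenced libraries moved it as far in RPRD1B_KD (-0.42 without its first and -1.29 without its second library) and in RPRD1A_RPRD1A_KD (-0.40 and -0.997), and no such fit passed the edgeR test (adjusted p 0.36 to 1.00 over the 7 groups). RPL39 itself lay between -0.13 and 0.09 in the 7 groups. In Flp-In libraries RPL39L had 17.2 and 14.2 CPM in FLP, 24.2 and 19.99 in FLP_TET, 26.1 and 19.7 in RPRD1B_FL, and 19.9 and 18.4 in RPRD1B_FL_TET. All these levels rest on 26 to 83 counts per library.

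Among 40S proteins, RPS3 was near the low end in RPRD2_KD. RPS3, which lines the mRNA entry site and also acts in DNA repair, had 2769 and 3794 CPM in CTRL and 2369 and 2759.6 CPM in RPRD2_KD. These groups did not overlap, but the 14 silenced libraries ran from 2183 to 3928 CPM, a range that holds both CTRL values. The log2 fold change in RPRD2_KD was -0.40 (SE 0.23) for RPS3, with an edgeR adjusted p of 1.00. Over the 16 HEK293T libraries, RPS3 was the member whose log level was most like that of RPL39L (r 0.66). Both were higher in the second CTRL library than in the first, and HEK293T libraries differed by number, so this r is a description only.

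Members of low count gave the highest values in the silenced groups. RPS18, a 40S protein, had 29.8 CPM in RPRD1A_RPRD2_KD and 18.8 CPM in CTRL on average (log2 fold change 0.68, SE 0.27, edgeR adjusted p 0.68). RPL6, a 60S protein, had 16.4 and 9.52 CPM (0.73, SE 0.40, edgeR adjusted p 0.72). In the triple group RPS13, a 40S protein, was the highest member of 10 CPM or more, at 0.41 (SE 0.29). RPS25, which internal ribosome entry sites need, was the next lowest of such members after RPL39L, at -0.30 (SE 0.28). None of these passed the test.

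The interaction tests, which set a double knockdown against its single knockdowns added up, called no member. edgeR called 0 of 78 for RPRD1A with RPRD2 and 0 of 78 for RPRD1B with RPRD2, where 0% of all genes were called, and DESeq2 also called 0 in each. At an unadjusted p under 0.05 there were 5 and 3 members, against 7.18% and 3.3% of all genes. RPL39L was the highest member of 10 CPM or more in both, at 0.95 (SE 0.45) and 1.198 (SE 0.45), with edgeR adjusted p of 0.69 and 1.00. These interactions use the same CTRL and RPRD2_KD libraries.

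One member of one library stood out against its line. RPL34, a 60S protein encoded at chr4:108620566-108630412 (plus strand), had 593 CPM in the second RPRD1A_RPRD2_KD library and 1084 to 1295 CPM in the other 15 HEK293T libraries. Its log2 deviation from the line's mean was -1.19 after the members' median deviation in that library (0.24) was subtracted. By this measure it was the single member beyond 1 in HEK293T cells. In that library the other members tended upwards: RPS12 was at 5164 CPM against 3806 CPM in the first library of the group, and RPS28 at 489 against 351 CPM. The first library of the group had 1295 CPM of RPL34, the highest HEK293T value. The RPL34 interaction of RPRD1A with RPRD2 was -0.50 in the main fit (SE 0.31, edgeR adjusted p 0.73). Leaving out single samples gave values from -1.10 to -0.063. The value without that first library was -1.10, from a group left with the outlying second library alone. That lone sample was assumed to vary like the other groups.

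**Figure D4:**
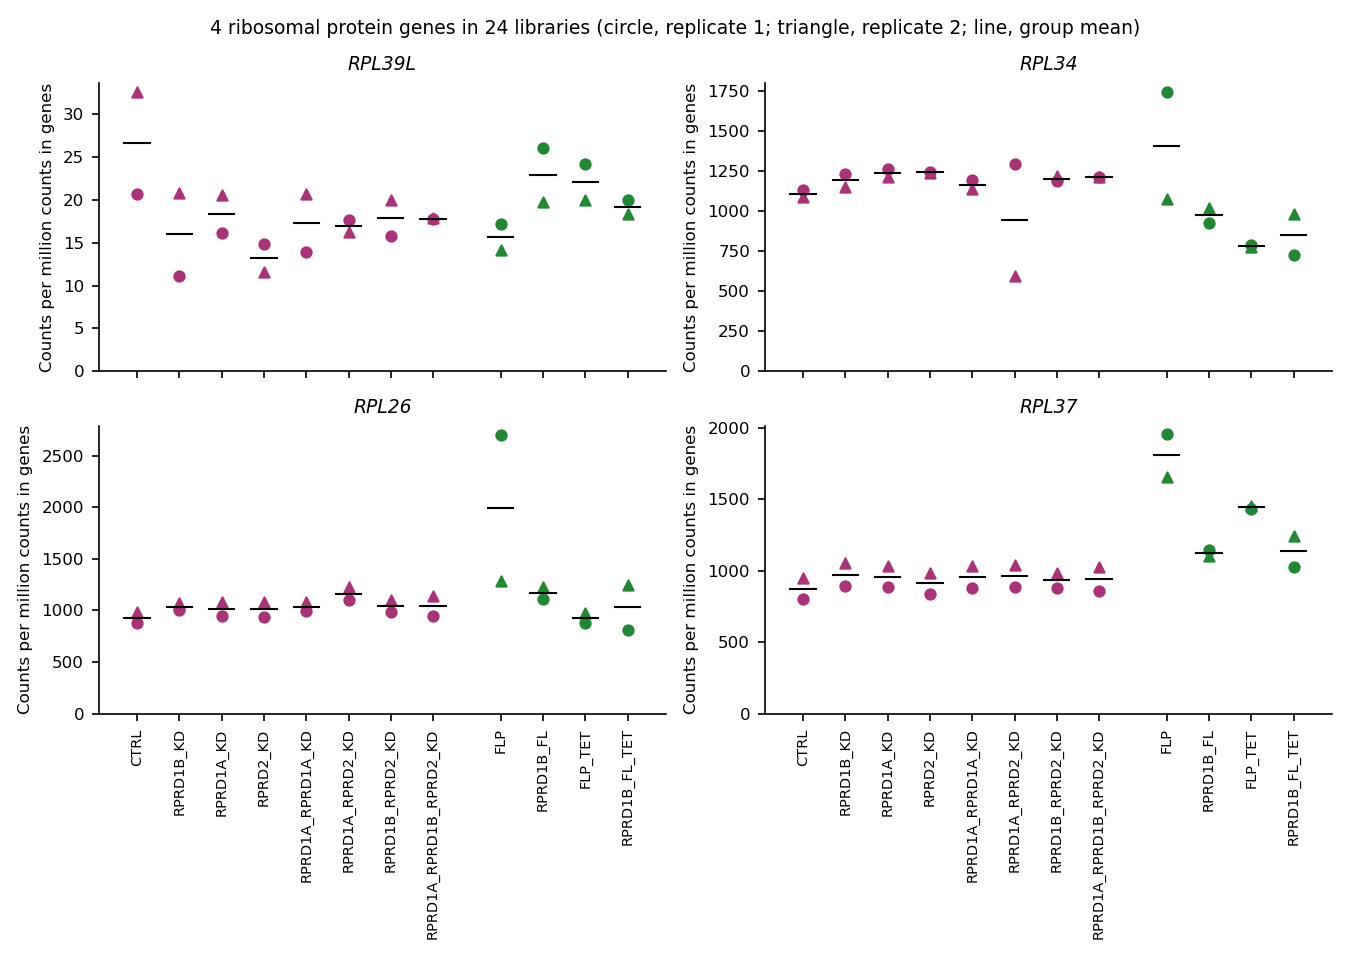
Levels in CPM of RPL39L, RPL34, RPL26 and RPL37 in 24 libraries (circles replicate 1, triangles replicate 2, lines group means; HEK293T groups left, Flp-In groups right). RPL39L is highest in the second CTRL library at 32.6, RPL34 is at 593 in the second RPRD1A_RPRD2_KD library, RPL26 is at 2697 in the first FLP library, and RPL37 is higher in FLP and FLP_TET than in both RPRD1B_FL groups.

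In the RPRD1B_FL line, RPL37 was the member that was lower than in the parent line. RPL37, a zinc-finger protein of the 60S subunit, is encoded on the short arm of chromosome 5, at chr5:40825262-40835335 (minus strand). It had 1956 and 1658 CPM in FLP and 1141 and 1099.8 CPM in RPRD1B_FL, so the groups did not overlap. It fell by 0.67 on the log2 scale (SE 0.14, edgeR's quasi-likelihood adjusted p 0.013). It was 1 of 77 members called (1.3%), where 1.18% of all genes were called, so the count is near the background. DESeq2 called RPL37 alone too, and 7 members had an unadjusted p under 0.05 in the edgeR fit (13.3% of all genes).

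With tetracycline RPL37 had 1432 and 1452 CPM in FLP_TET and 1024 and 1245 CPM in RPRD1B_FL_TET, again without overlap. The log2 fold change was -0.34 (SE 0.14) and did not pass (edgeR adjusted p 0.36). The 2 comparisons share no sample. HEK293T libraries had 799 to 1053 CPM of RPL37, below every Flp-In library except the first RPRD1B_FL_TET library, whose 1024 CPM lay inside that range. The call in RPRD1B_FL was lost when the first FLP library (adjusted p 0.24), the first RPRD1B_FL library (0.11) or the second RPRD1B_FL library (0.17) was left out of the edgeR fit, with log2 fold changes of -0.55 to -0.72.

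The other members of extreme value in RPRD1B_FL against FLP were RPL26 at -0.75 (SE 0.22, edgeR adjusted p 0.12), RPL34 at -0.51 (SE 0.18, edgeR adjusted p 0.18) and RPL39L at 0.58 (SE 0.25, edgeR adjusted p 0.30). The members' median was 0.02 and that of all genes 0.01. In RPRD1B_FL_TET against FLP_TET edgeR called 0 of 77 members, where 1.11% of all genes were called. There were 5 at an unadjusted p under 0.05 (10.3% of all genes), and DESeq2 called 0. RPS12, a 40S protein, had the highest value there among members of 10 CPM or more, at 0.45 (SE 0.17, edgeR adjusted p 0.27), from 2433 and 2853 CPM in FLP_TET and 2964 and 4241 CPM in RPRD1B_FL_TET.

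Tetracycline in the parent line came with lower RPL26 and RPL34. RPL26, a 60S protein that also binds the p53 mRNA, had 2697 and 1289 CPM in FLP and 880 and 973 CPM in FLP_TET, without overlap. It fell by 1.04 on the log2 scale (SE 0.22, edgeR's quasi-likelihood adjusted p 0.046). RPL34 had 1742 and 1073 CPM in FLP and 785 and 772 CPM in FLP_TET and fell by 0.79 (SE 0.18, edgeR adjusted p 0.047). They were 2 of 77 members called (2.6%), where 1.02% of all genes were called.

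Much of this rested on the first FLP library. Its 2697 CPM of RPL26 gave a log2 deviation of 1.16 from the line's mean, after the members' median deviation there (0.012) was subtracted. This was the single deviation beyond 1 in Flp-In cells, while the other 7 libraries had 811 to 1289 CPM. Without that library RPL26 differed by -0.41 and RPL34 by -0.40 (edgeR adjusted p 0.63 for both). Leaving out the first or the second FLP_TET library also ended both calls (edgeR adjusted p 0.34 for both), with values between -0.79 and -1.13. Without the second FLP library RPL26 differed by -1.48 and RPL34 by -1.10. DESeq2 called 3 members, RPL34 and RPS28 among them, and not RPL26 (adjusted p 0.091). Over the 8 Flp-In libraries RPL34 was the member whose log level was most like that of RPL26 (r 0.99), followed by RPS24 (r 0.95) and RPL19 (r 0.95).

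Other members had small unadjusted p-values here in both directions. At an unadjusted p under 0.05 there were 31 of 77 members (40.3%), 16 higher and 15 lower, where 22.7% of all genes lay under that p, 11.1% higher and 11.6% lower. Higher ones included RPS28 at 0.55 (SE 0.16) and RPL29 at 0.53 (SE 0.16), and lower ones RPL7 at -0.94 (SE 0.28), RPS24 at -0.59 (SE 0.20) and RPL31 at -0.56 (SE 0.17), none of which passed the edgeR test after adjustment over all genes. The log2 fold change followed transcript GC content with r 0.42 across 69 members and r 0.52 across 11750 genes, which are not independent replicates. RPL26, RPL34 and RPL7 have 43.6%, 43.8% and 43.1% GC, and RPL29 has 57.0%. With a correction for GC content, chosen after the data were seen, edgeR called 5 members (RPL13, RPL26, RPL31, RPL34 and RPS19), all lower.

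In the RPRD1B_FL line tetracycline changed no member by the test: edgeR called 0 of 77 in RPRD1B_FL_TET against RPRD1B_FL, where 0% of all genes were called, with 2 members at an unadjusted p under 0.05 (6.13% of all genes) and 0 called by DESeq2. RPL26 had 1109.9 and 1229.5 CPM in RPRD1B_FL and 811 and 1251 CPM in RPRD1B_FL_TET, which overlap. The difference between the lines in the response to tetracycline was 0.91 for RPL26 (SE 0.32) and 0.65 for RPL34 (SE 0.25), and it did not pass (edgeR adjusted p 0.99 for both). Of 77 members 0 were called for that difference, as were 0% of all genes, with 6 members at an unadjusted p under 0.05 (3.99% of all genes) and 0 called by DESeq2.

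The lines differed far more than the treatments did. In CTRL against FLP edgeR called 33 of 78 members (42.3%), where 33.4% of all 12803 genes were called; 12 were higher (16.1% of all genes) and 21 lower (17.4%) in CTRL. The members' median was -0.15 and that of all genes 0.02. The cell line, the siRNA transfection and the preparation of the libraries differ together here and cannot be told apart, and CTRL libraries held more reads outside genes.

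The largest single drops were in 40S proteins, while the median change was alike in 40S and 60S members. The median was -0.14 for 40S members and -0.16 for 60S members outside the stalk. The summed counts differed more. The 40S members took 8.36% and 8.14% of counts in genes in FLP and 6.10% and 6.33% in CTRL. The 60S members, stalk and RPL27A included, took 8.07% and 8.20% in FLP and 9.08% and 8.16% in CTRL. Of 32 40S members, 10 were lower and 3 higher, where 17.4% of all genes were lower and 16.1% higher. RPS28 had 341 and 389 CPM in CTRL and 1964 and 2360 CPM in FLP, and fell by 2.59 (SE 0.20, edgeR adjusted p 1.42e-10). Over all libraries it was at 333 to 489 CPM in HEK293T cells and at 1964 or more in Flp-In cells, with no overlap between the lines. RPS19, the 40S protein mutated most often in Diamond-Blackfan anaemia, fell by 1.91 (SE 0.16), from a mean of 8993 CPM in FLP to 2427 in CTRL. RPS16, whose tail reaches the decoding site, fell by 1.70 (SE 0.17), from 4342 to 1362 CPM. RPS27L, known as a target of p53, fell by 1.17 (SE 0.17), from 249 and 251 CPM to 122 and 104. The higher 40S members were RPS3 at 0.90 (SE 0.22), RPS13 at 1.07 (SE 0.33) and RPS7 at 1.54 (SE 0.43), and the last rests on means of 22.3 and 7.46 CPM and lost its call without the first CTRL or the second FLP library (edgeR adjusted p 0.14 and 0.058).

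Of 43 large-subunit members outside the stalk, 10 were lower and 9 higher, set against the same shares of all genes. The lowest of those called were RPL36 at -1.47 (SE 0.20), RPL26 at -1.12 (SE 0.22), RPL37 at -1.07 (SE 0.17) and RPL13 at -1.02 (SE 0.16). The call of RPL26 was lost without the first FLP library (-0.53, edgeR adjusted p 0.058). The highest of those called were RPL27A at 1.16 (SE 0.23), RPL29 at 1.11 (SE 0.18) and RPL7 at 0.87 (SE 0.26). Without the first CTRL library RPL27A was at 0.71 (edgeR adjusted p 0.033). RPL39 (0.61, SE 0.16) and its near copy RPL39L (0.76, SE 0.29, edgeR adjusted p 0.045) were both higher in CTRL. In the stalk RPLP0 fell by 0.45 (SE 0.15, edgeR adjusted p 0.021), while RPLP2 at 0.35 (SE 0.16) did not pass.

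**Figure D5:**
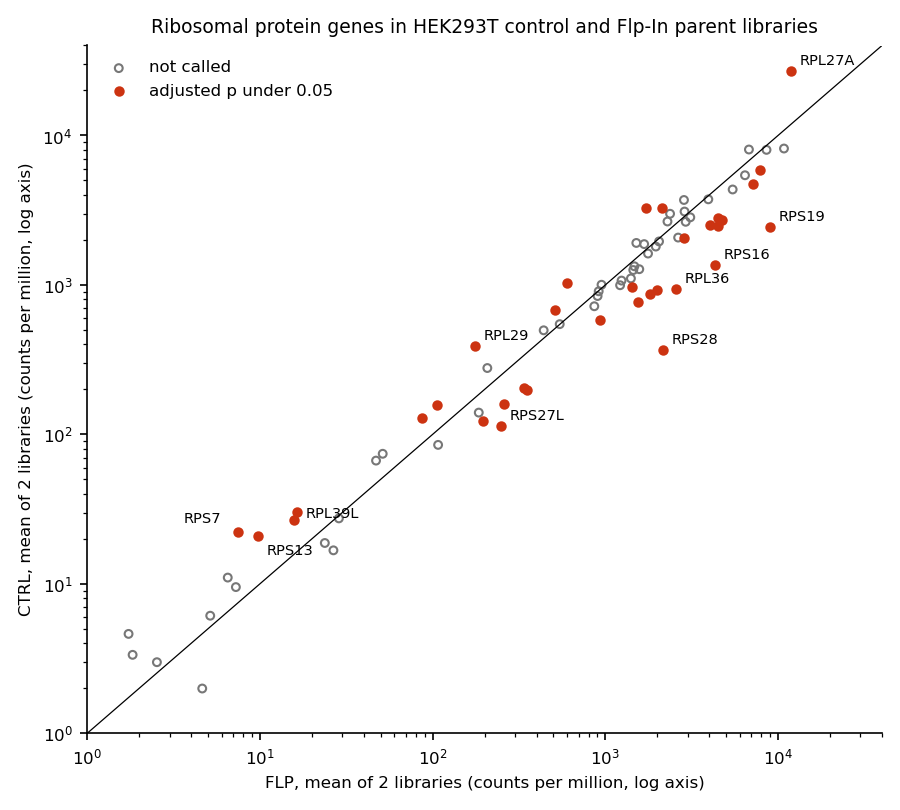
Mean CPM of each tested ribosomal protein gene in 2 CTRL libraries of HEK293T cells (vertical) against 2 FLP libraries of Flp-In cells (horizontal), on log axes, with the line of equality. Red points have an adjusted p under 0.05; RPS28, RPS19, RPS16 and RPL36 lie farthest below the line among abundant members, and RPL27A, the most abundant, lies above it.

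Genes that act with the ribosomal proteins were read from 4 lists. In the 7 silenced groups no gene of any list was called by edgeR: 7 ribosomal protein relatives outside the naming rule, 15 measured other TOP mRNAs of 17, 13 regulators of TOP mRNAs and 32 genes for ribosome assembly and rRNA synthesis. Their medians lay between -0.12 and 0.16. In RPRD1B_FL against FLP, 1 of 32 assembly genes was called, where 1.18% of all genes were: BRIX1, which helps to build the 60S subunit and is also encoded on chromosome 5, fell by 0.74 (SE 0.17, edgeR adjusted p 0.032). In FLP_TET against FLP, where 1.02% of all genes were called, 1 of 32 assembly genes, 1 of 13 regulators and 1 of 7 relatives were called. The assembly factor GNL2 fell by 1.25 (SE 0.26, edgeR adjusted p 0.044), the kinase gene MTOR by 0.85 (SE 0.21, edgeR adjusted p 0.04995) and RPL7L1, a nucleolar relative of RPL7, by 0.71 (SE 0.17, edgeR adjusted p 0.04995). These adjusted p-values lie close to the threshold of 0.05. In this comparison much of the change of RPL26 and RPL34 rested on the first FLP library. The log2 fold changes also followed transcript GC content (r 0.52 over all genes). Whether GNL2, MTOR and RPL7L1 depend on that library was not tested.

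Between the lines, 11 of 32 assembly genes were higher and 3 lower in CTRL (median 0.39, against 0.02 for all genes), where 16.1% of all genes were higher and 17.4% lower. PPAN rose by 1.87 (edgeR adjusted p 4.35e-04), while BRIX1 fell by 0.93 (edgeR adjusted p 0.0046). Among 15 other TOP mRNAs, set against the same shares, 2 were higher and 6 lower (median -0.08): PABPC1, the poly(A)-binding protein, rose by 1.54 (SE 0.18, edgeR adjusted p 2.38e-07), and the elongation factor EEF2 fell by 0.87 (edgeR adjusted p 1.74e-04). RPL22L1, the near copy of RPL22, rose by 2.82 (SE 0.16, edgeR adjusted p 7.27e-13), from 57.4 CPM in FLP to 412 in CTRL. Among regulators RPS6KB1, an S6 kinase, was higher and LARP4B, MTOR and RHEB were lower.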

How the data were processed

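Per the labels' protocols, TRIzol RNA went into QuantSeq 3′ REV libraries, which read the 3′ ends of polyadenylated transcripts. The deposited tables hold raw read counts for each gene name. Their 5 closing rows, which count reads given to no gene, stayed out of totals and tests. The submitters' processing notes name FastQC, STAR, HTSeq, DESeq2 and the build GRCh38; the annotation, the strand setting and any filter are not given in the sources used here. Overlapping and antisense genes can therefore share reads.

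Counts were analysed with edgeR 4.0.16 in R 4.3.3: filterByExpr (minimum count 10, minimum total 15), TMM scaling, 1 coefficient per group, and the quasi-likelihood test with Benjamini-Hochberg adjustment over all genes tested, called at 0.05. The 16 HEK293T samples formed 1 fit (11834 genes), the 8 Flp-In samples another (11948), and all 24 one more (12803) for CTRL against FLP. Each SE was taken as |log2 fold change| / sqrt(F). The script was tested on simulated data. CPM use the total in genes of each library; likeness of members is Pearson's r of log2(CPM + 1). Shares were tested by exact permutation. Named genes are members called and the 2 highest and 2 lowest members of 10 CPM or more in each comparison. Members beyond 3 scaled median absolute deviations are named too. So are members beyond 1 log2 of the line's mean in 1 library, after the members' median deviation in that library was subtracted. The 10 most abundant, the near copies and called list genes are also named. Others were chosen after their values were seen. Some genes that the rule picks are not reported here by name. The members and lists were chosen with earlier results of these data known. GENCODE release 29 gave gene positions and GC content, and RefSeq the start sequences. Counting error only is covered by the floor of 3 counts.

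Alternatives were RLE size factors, total counts alone, DESeq2 1.42.0, no filter, a stricter filter (mean count of at least 50), fitting just the groups compared, the replicate number as a block, the second RPRD1A_RPRD2_KD library omitted, each sample left out, and, chosen after seeing the data, a GC correction (lowess span 0.3) and the share without RPL27A.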

Additional observations from a re-analysis of the deposited data

How the results depend on the processing

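Each tested difference in the summed share was smaller than the spread within groups under every alternative run. Single silenced groups were not tested against CTRL. Leaving out single samples gave differences of -0.33 to 0.36 percentage points for silenced minus CTRL, -0.11 to 0.27 for the RPRD1B_FL minus the parent line and -0.079 to 0.29 for with minus without tetracycline. No name of a mitochondrially encoded gene had a count, so that alternative could not differ.

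Counts of called members moved most in FLP_TET against FLP: 17 without a filter, 14 with the compared groups only, 5 with the GC correction, 4 with the GC correction and the replicate block, 0 at a mean count of 50 or more and 0 with the replicate block. Without a filter there were 3 in RPRD1B_FL against FLP, 1 in RPRD1B_FL_TET against FLP_TET (RPS12) and 1 in the RPRD1A with RPRD2 interaction (RPS3). Counts of called members under alternatives, in this section and above, are given without the share of all genes called. They therefore cannot be set against the background.

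The replicate numbers were not taken as pairs in the main fit, as no label ties the samples. Same-numbered samples nevertheless deviated together with r over 0.1 in 26 of 28 pairs of HEK293T groups (8799 genes, lowest -0.010). Both others involve RPRD1A_RPRD2_KD. In Flp-In groups 1 of 6 pairs did so (lowest -0.36). The shared difference between first- and second-numbered HEK293T libraries thus stayed in the spread of the main fit, which can hide calls. Over 73 members alone, r was 0.26 to 0.82 in the 28 HEK293T pairs and -0.74 to 0.68 in the Flp-In pairs. The replicate block alone changed no other count of calls in the HEK293T groups, which stayed at 0, or in RPRD1B_FL against FLP (1), and gave 37 in CTRL against FLP. The block with the second RPRD1A_RPRD2_KD library omitted gave 1 call in RPRD1A_KD (RPS3, -0.34), 2 in RPRD1B_KD (RPL32 and RPS3), 4 in RPRD2_KD (RPL39L and RPS3 among them), 1 in RPRD1A_RPRD1A_KD (RPS3), 1 in RPRD1A_RPRD2_KD (RPL36), 2 in the RPRD1A with RPRD2 interaction and 5 in the RPRD1B with RPRD2 interaction. RPL39L in RPRD2_KD was then at -1.04 (edgeR adjusted p 0.021) and RPL22 in RPRD1A_RPRD2_KD turned to 0.073. The cause was not tested.

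Leaving out single samples gave 22 to 26 calls in CTRL against FLP, 0 to 11 in FLP_TET against FLP, 0 to 3 in RPRD1B_FL against FLP, 0 to 1 in RPRD1B_FL_TET against FLP_TET, 0 to 4 in RPRD1A_RPRD2_KD (4 without its first library), 0 to 3 in the RPRD1A with RPRD2 interaction, 0 to 1 in the tetracycline by line interaction, and 0 to 0 in the others. Values that had not passed spanned 0 when single samples were left out: RPS25 from -0.61 to 0.061 in the triple group and -0.62 to 0.050 in RPRD1B_RPRD2_KD, RPS18 from -0.018 to 0.42 in RPRD1B_KD, RPL6 from -0.31 to 0.78 in RPRD1A_KD, and in RPRD1B_RPRD2_KD also RPS18 (-0.051 to 0.62) and RPL6 (-0.29 to 0.78), RPS13 from -0.044 to 0.46 in RPRD1A_RPRD1A_KD and from -0.083 to 0.80 in the triple group, and RPL3 from -0.78 to 0.11 in the RPRD1B with RPRD2 interaction. Of 986 values of named members under alternatives, 936 kept their direction and side of the threshold. Most named members had not passed in the main fit, so most of these values only failed to pass again. The count therefore says little about the calls. Those of RPL37, RPL26 and RPL34 in Flp-In cells were each lost in several alternatives, as given above. Members under about 30 CPM rest on few counts per library, which limits what their values can show.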
